A study of Mus musculus with 12 samples.

Results

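Rhot1 and Rhot2 encode the Miro GTPases, and Trak1 and Trak2 encode the adaptors that couple Miro to motors. These 4 genes were taken by symbol from the 11385 genes counted in mouse oocytes lacking mitofusins. All 4 were present in the table and all 4 passed the filter on low counts, which removed no gene. Total RNA was sequenced from pools of 50 germinal-vesicle (GV) oocytes, meaning oocytes arrested before meiotic maturation, taken from unprimed C57BL/6J mice aged 21 to 23 days and stripped of cumulus cells. The 4 groups of 3 pools each were WT, Mfn1-/- (loss of mitofusin 1), Mfn2-/- (loss of mitofusin 2) and Mfn1&2-/- (loss of both). For 1 pool the genotype label reads Mn2-/-, and its description served to assign it to Mfn2-/-. The sources used here give neither how each loss was made (a Cre line or its promoter) nor the number of animals that fed each pool. The p-values below therefore measure the spread between pools, which may be technical.

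Miro proteins sit in the outer mitochondrial membrane, where their GTPase domains and calcium-binding EF hands face the cytosol. Trak proteins bind Miro on one side and kinesin-1 or dynein-dynactin on the other, so that mitochondria can move along microtubules. Mitofusins fuse outer membranes, and they have also been found in complexes with Miro and Trak in neurons, which is the link that places these 4 genes beside a mitofusin loss. In growing mouse oocytes mitochondria move along microtubules and gather around the nucleus and later the spindle.

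The stretches near the Rhot1 and Rhot2 starts that hold the motifs searched are shown because these paralogs are compared with each other below. They come from the RefSeq promoter table for GRCm38.p6, which places the start at 80209051 of chromosome 11 for Rhot1 and at 25844525 of chromosome 17 for Rhot2. GENCODE places the outermost start of each gene further upstream. The whole Rhot2 stretch and the last 8 bases of the Rhot1 stretch lie in sequence that GENCODE annotates as UTR. Capitals mark matches, on either strand, to the GC box GGGCGG and to the ETS motif CCGGAAG. Each is written on the strand of the gene, at chr11:80208801-80209026 (plus strand) for Rhot1 and chr17:25844562-25844591 (minus strand) for Rhot2.
Rhot1: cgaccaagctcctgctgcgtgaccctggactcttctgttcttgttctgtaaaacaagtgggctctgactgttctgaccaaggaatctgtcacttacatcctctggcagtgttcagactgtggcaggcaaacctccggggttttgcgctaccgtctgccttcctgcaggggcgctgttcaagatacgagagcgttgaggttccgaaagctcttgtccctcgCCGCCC
Rhot2: GGGCGGgaCCGGAAGcttgggtgaGGGCGG
In the 250 bases before the RefSeq start, Rhot1 held 1 GC box, and Rhot2 held 2 GC boxes and 1 ETS motif. A GC box was present in 32.7% and the ETS motif in 6.91% of the 32851 promoters of the same length. No promoter listed for any of the 4 genes matched CCAAT (33.8% of promoters), the E-box CACGTG (6.02%) or TATAAA (12.4%). GC content was 58.8% for Rhot1 and 58.4% for Rhot2, against a median of 52.4% over all promoters. Trak2 had a single listed promoter, at 69.6% GC with 1 GC box, while Trak1 had 4, at 53.2% to 75.6% GC, of which the most upstream held 5 GC boxes. The motif searches describe letters only, since binding was not measured.

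In the GENCODE annotation of GRCm38, Rhot1 spans 80209019 to 80267907 of chromosome 11 (plus strand), Rhot2 spans 25838457 to 25844851 of chromosome 17 (minus), Trak1 spans 121297502 to 121474918 of chromosome 9 (plus) and Trak2 spans 58900449 to 58973430 of chromosome 1 (minus). None lies on chromosome 3 or 4 with Mfn1 or Mfn2. Rhot2 is the one with a counting limit: on its own strand, 1307 bp of its exons are shared with Gm20683 and 81 bp with Wdr90, so part of its counts may belong to them or have been discarded. The other 3 genes share no exon sequence with a neighbour in the annotation.

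Libraries held 11575357 to 16024893 counts, and correlations within a group were 0.968 to 0.985. Levels are TMM-scaled CPM, meaning counts divided by the TMM-adjusted size of their library. The deleted genes followed the labels: Mfn1 was at 14.8 to 26.4 CPM in the 6 libraries without it and 217 to 297 in the others, and Mfn2 was at 9.19 to 13.5 CPM against 64.3 to 87.2. All 13 oocyte markers were detected, with a summed level of 18825 to 21571 CPM in Mfn2-/- and 14491 to 18133 in the other groups. Granulosa markers (10 of 13 used) summed to 441 to 541 CPM in 11 libraries and to 878 in WT replicate 3. The markers used for theca (1 of 5) summed to 1.53 to 12.8 CPM. Of 10 markers listed for endothelium, blood and immune cells, the 4 used (Pecam1, Kdr, Tek and Tie1) are all endothelial. They summed to 166 to 192 CPM in Mfn1&2-/- and 132 to 156 in the other groups. No listed blood or immune marker was in the table. The markers not used, in each of these lists, were absent from the table. The filter on low counts removed no gene of the table, so none of the markers used could be at 0 in every library. In such pools, fewer cells of a type and less RNA per cell cannot be told apart.

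Rhot1 was the most abundant of the 4 transcripts and Trak1 the next. Per kilobase of merged exons, WT oocytes held 56.0 ± 0.680 CPM of Rhot1 (SD, n = 3), 28.6 ± 2.47 of Trak1, 10.1 ± 1.47 of Rhot2 and 9.90 ± 1.84 of Trak2. Rhot1 and Trak1 stood apart by far more than their spread, while Rhot2 and Trak2 did not differ beyond theirs. Among 10700 genes with an annotated length, Rhot1 exceeded 93.2%, Trak1 84.9%, Rhot2 63.0% and Trak2 62.5%. Each pair therefore held a major and a minor transcript, and Rhot1 and Trak1 stayed the major ones in all 12 libraries.

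**Figure D1:**
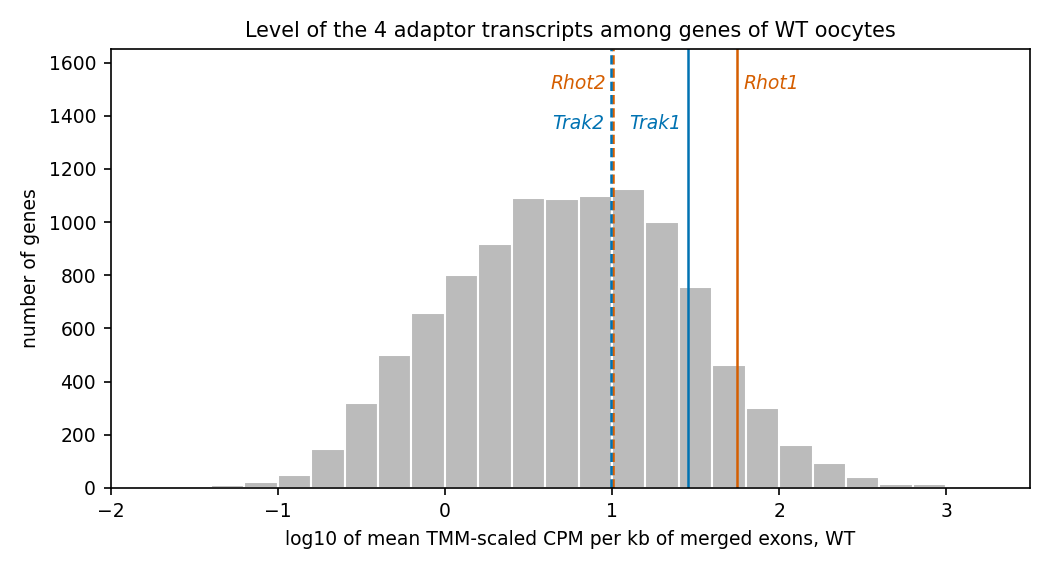
Histogram of the WT level of 10700 genes (x axis: log10 of mean TMM-scaled CPM per kb of merged exons; y axis: number of genes), with a vertical line at each Miro and Trak gene. Rhot1 (56.0) and Trak1 (28.6) lie in the upper tail, and Rhot2 (10.1) and Trak2 (9.90) lie close together nearer the middle.

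Rhot1, the major Miro, was lower in either single loss and higher in the double loss than in WT, in differences that did not pass the test against WT. Its level was 411, 415 and 421 CPM in WT, 362, 359 and 389 in Mfn1-/-, 401, 341 and 376 in Mfn2-/-, and 432, 461 and 455 in Mfn1&2-/-. Every Mfn1&2-/- pool lay above each pool of the other groups, and every single-loss pool lay below each WT pool. The means were 415.5 ± 5.04 in WT (SD, n = 3), 370.0 ± 16.6 in Mfn1-/-, 373 ± 30.6 in Mfn2-/- and 449.7 ± 15.3 in Mfn1&2-/-. As a share of the WT mean these were 89.1%, 89.7% and 108.2% for the last 3.

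Rhot1 rose in Mfn1&2-/- relative to Mfn2-/-, by 0.27 ± 0.08 (log2 fold change ± SE; 1.21-fold, 95% interval 1.07 to 1.36; edgeR quasi-likelihood adjusted p = 0.0462). Relative to Mfn1-/- the difference was of the same size, 0.28 ± 0.08 (1.08-fold to 1.37-fold), with an edgeR adjusted p of 0.0553. The interaction asks whether the change with 1 mitofusin lost is another when the second is lost too, and Rhot1 passed it at 0.44 ± 0.12 (1.36-fold, interval 1.14 to 1.61; edgeR adjusted p = 0.0467). Against WT the edgeR values were -0.17 ± 0.08 in Mfn1-/- (adjusted p = 0.410), -0.16 ± 0.08 in Mfn2-/- (0.241) and 0.11 ± 0.08 in Mfn1&2-/- (0.508). The 2 single losses were near each other, at -0.01 ± 0.08 for Mfn1-/- minus Mfn2-/- (edgeR adjusted p = 0.954).

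Both Rhot1 calls lay close to the threshold. With 1 library left out at a time, the edgeR adjusted p ran from 0.0426 to 0.185 for Mfn1&2-/- against Mfn2-/- (log2 fold change 0.21 to 0.33), and the call was kept only without WT replicate 3 or without Mfn2-/- replicate 1. For the interaction it ran from 0.0399 to 0.120 (0.38 to 0.50), and the call was kept only without Mfn2-/- replicate 1. Both calls were also lost with median-of-ratios scaling (edgeR adjusted p = 0.0557 and 0.0546), with library size only (0.0720 and 0.0903) and with the replicate block (0.0769 and 0.0792), and the first with only the groups compared (0.0840). The sum of the endothelial markers was also highest in Mfn1&2-/-, and its part in the Rhot1 difference was not tested.

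Rhot2, the minor Miro, stood highest on average in Mfn2-/-, but not in Mfn1&2-/-, the other group without mitofusin 2. It measured 51.0, 45.5 and 38.0 CPM in WT, 55.6, 38.4 and 38.2 in Mfn1-/-, 52.0, 63.4 and 64.3 in Mfn2-/-, and 39.9, 41.8 and 47.8 in Mfn1&2-/-. All 3 Mfn2-/- pools lay above all WT and all Mfn1&2-/- pools, but Mfn1-/- replicate 1 overlapped them. The Mfn2-/- mean was 133.5% of WT. No comparison of Rhot2 passed the test: the log2 fold change from WT was 0.42 ± 0.17 in Mfn2-/- (1.04-fold to 1.71-fold; edgeR adjusted p = 0.126), -0.03 ± 0.17 in Mfn1-/- (0.967) and -0.05 ± 0.17 in Mfn1&2-/- (0.911). Mfn1&2-/- minus Mfn2-/- was -0.47 ± 0.17 (edgeR adjusted p = 0.0891), Mfn1-/- minus Mfn2-/- was -0.44 ± 0.17 (0.0967) and Mfn1&2-/- minus Mfn1-/- was -0.03 ± 0.17. Of these, the difference between the single losses was called without Mfn1-/- replicate 1 (-0.63, edgeR adjusted p = 0.0284). Its interaction was -0.44 ± 0.24 (edgeR adjusted p = 0.304). The summed oocyte markers were likewise highest in Mfn2-/-, and their part in the Rhot2 values was not tested.

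Trak1, the major adaptor, passed the test in no comparison. Its pools read 341, 396 and 343 CPM in WT, 335, 330.4 and 349 in Mfn1-/-, 386, 338 and 375 in Mfn2-/-, and 371, 325 and 316 in Mfn1&2-/-. Every group overlapped every other. The log2 fold changes from WT were -0.09 ± 0.09 in Mfn1-/- (0.820-fold to 1.08-fold; edgeR adjusted p = 0.728), 0.02 ± 0.09 in Mfn2-/- (0.888-fold to 1.17-fold; 0.901) and -0.09 ± 0.09 in Mfn1&2-/- (0.818-fold to 1.07-fold; 0.654). Changes in either direction within those intervals are not excluded. Further contrasts were Mfn1&2-/- minus Mfn2-/- at -0.12 ± 0.09, Mfn1-/- minus Mfn2-/- at -0.11 ± 0.09 and the interaction at -0.03 ± 0.13, with edgeR adjusted p-values of 0.460, 0.460 and 0.927.

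Trak2, the minor adaptor, was the most scattered of the 4, with a within-group coefficient of variation of 21.6% against 4.77% for Rhot1, 7.22% for Trak1 and 15.0% for Rhot2. It measured 83.9, 57.9 and 68.9 CPM in WT, 51.4, 50.5 and 54.7 in Mfn1-/-, 66.3, 87.6 and 67.9 in Mfn2-/-, and 47.4, 63.2 and 91.1 in Mfn1&2-/-. The Mfn1-/- pools were tightly grouped and below all WT and all Mfn2-/- pools, whereas the Mfn1&2-/- pools held both the lowest and the highest value of all 12. The Mfn1-/- mean was 74.3% of WT, a log2 fold change of -0.43 ± 0.20 (0.553-fold to 0.998-fold; edgeR unadjusted p = 0.0486, adjusted p = 0.388). Mfn1-/- minus Mfn2-/- was -0.50 ± 0.20 (edgeR adjusted p = 0.111). When only the libraries of those 2 groups were fitted, this passed at -0.49 (adjusted p = 0.0332). Trak2 differed from WT by 0.07 ± 0.20 in Mfn2-/- and by -0.06 ± 0.20 in Mfn1&2-/- (edgeR adjusted p = 0.862 and 0.915). Mfn1&2-/- minus Mfn1-/- was 0.37 ± 0.20 (edgeR adjusted p = 0.320), Mfn1&2-/- minus Mfn2-/- was -0.14 ± 0.20 (0.726), and the interaction was 0.29 ± 0.28 (0.594).

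**Figure D2:**
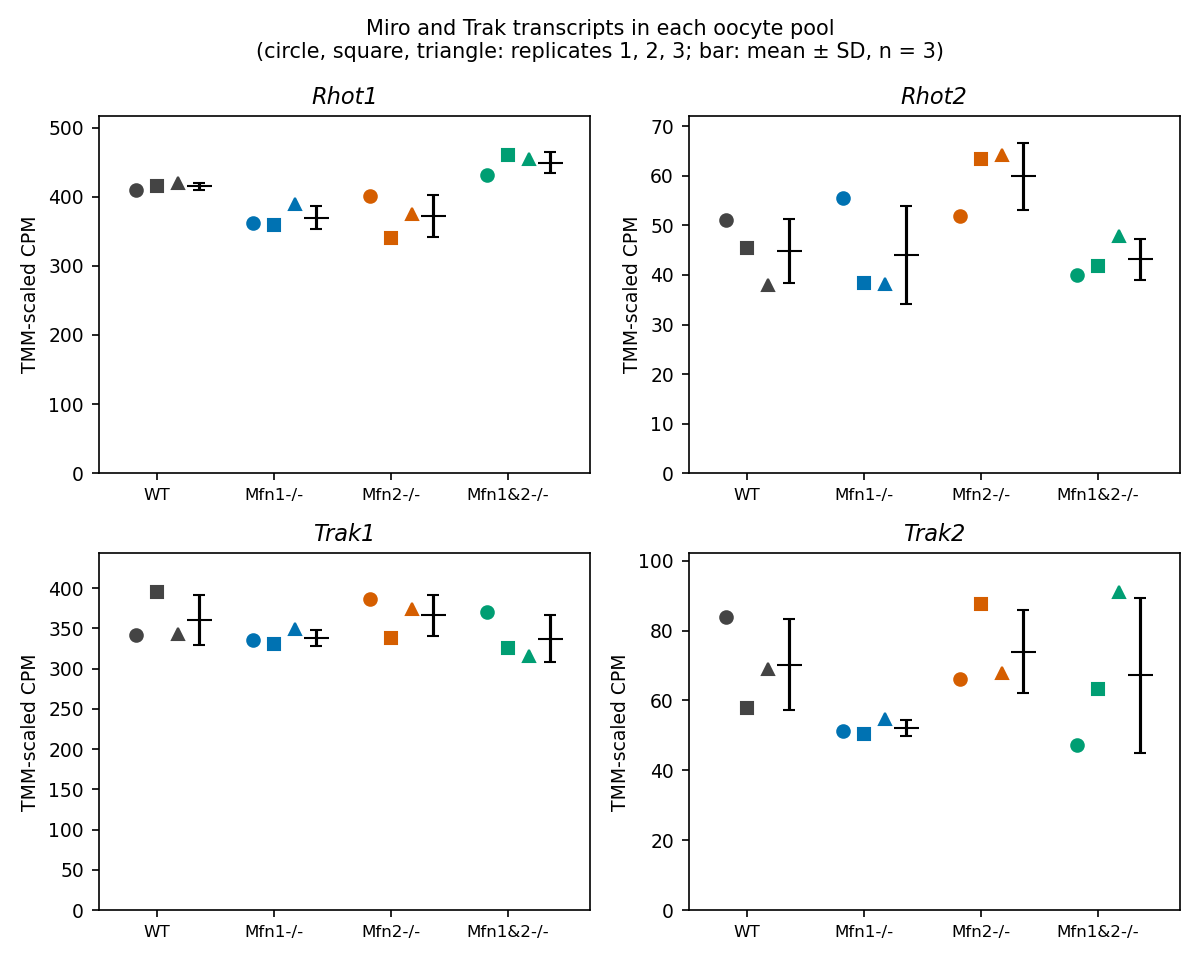
TMM-scaled CPM of Rhot1, Rhot2, Trak1 and Trak2 (y axes from 0) in every oocyte pool, by genotype (x axes); circles, squares and triangles are replicates 1, 2 and 3, and the bar beside them is the mean ± SD of 3 pools. The 3 Mfn1&2-/- pools are the highest for Rhot1 (432 to 461), and the Trak2 values of Mfn1&2-/- reach from 47.4 to 91.1.

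Read by comparison, the test called few of these genes. In Mfn1-/- against WT, edgeR called 0 of the 4 (1 at an unadjusted p under 0.05, 0 by DESeq2 and 0 by limma-voom), where 0.228% of all 11385 genes were called. In Mfn2-/- against WT it again called 0 (1 unadjusted, 0 and 0 by the other tools) against 11.4% of all genes. In Mfn1&2-/- against WT it called 0 (0 unadjusted, 0 and 0) against 4.21%. Between the losses, 0 were called in Mfn1&2-/- against Mfn1-/- (1 unadjusted; Rhot1 by DESeq2 and by limma-voom), with a background of 5.36%, and 0 in Mfn1-/- against Mfn2-/- (2 unadjusted, 0 and 0), with 13.3%. Rhot1 was the 1 gene called in Mfn1&2-/- against Mfn2-/-, with 10.2% of all genes called, and the 1 gene in the interaction, with 4.13%. DESeq2 and limma-voom called it in both, whereas median-of-ratios scaling, library size only and the replicate block ended both calls. These shares of all genes are of edgeR adjusted calls. In the same order of comparisons, 1456, 2965, 2119, 2360, 3135, 2924 and 2406 genes had an edgeR unadjusted p under 0.05. DESeq2 called 224, 1690, 834, 1044, 1887, 1570 and 903 genes, and limma-voom 19, 1235, 408, 658, 1642, 1216 and 469.

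Separation of 3 pools from 3 was more common, for these genes and for the rest of the table. It held against WT for Rhot1 and Trak2 in Mfn1-/- (2 of 4, both lower; 18.1% of all genes separated in either direction), for Rhot1 (lower) and Rhot2 (higher) in Mfn2-/- (2 of 4; 32.0%) and for Rhot1 in Mfn1&2-/- (1 of 4, higher; 22.1%). Mfn1&2-/- separated from Mfn1-/- for Rhot1 (1 of 4; 26.0%) and from Mfn2-/- for Rhot1 and Rhot2 (2 of 4; 31.5%). Mfn1-/- separated from Mfn2-/- for Trak2 (1 of 4; 33.9%). The 3 comparisons with WT share the same 3 WT pools.

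**Figure D3:**
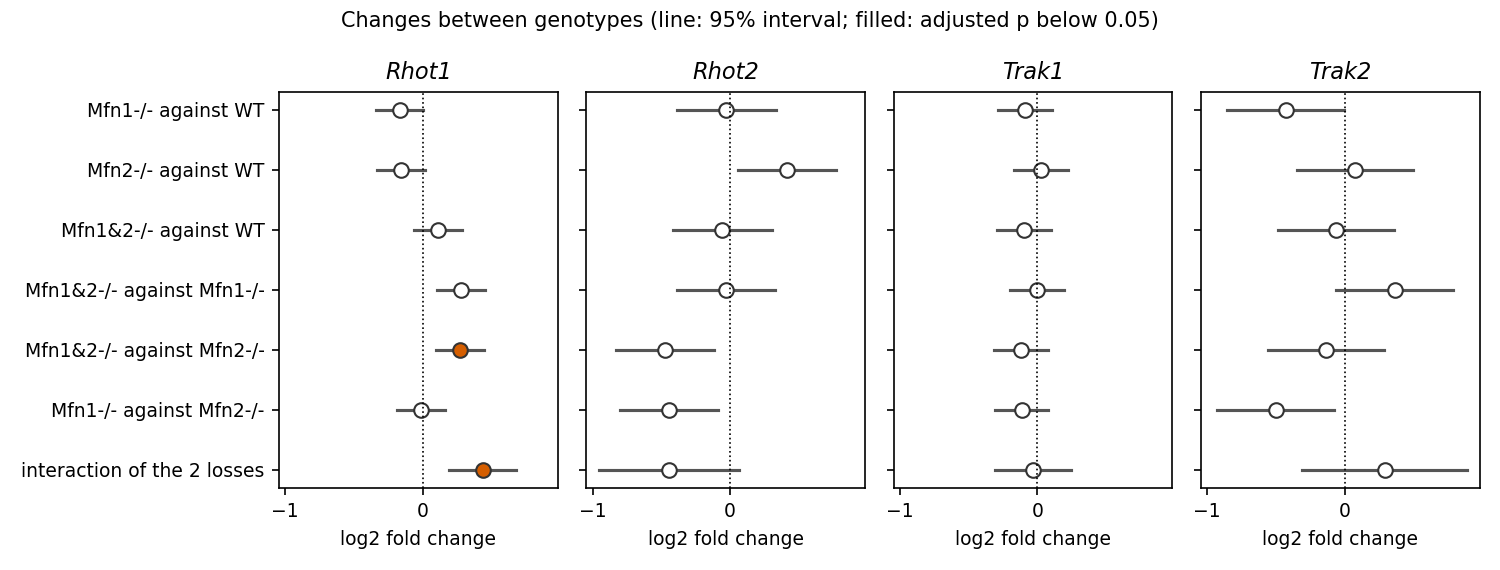
Log2 fold change (x axes; point, with a line for the 95% interval) of each Miro and Trak gene in the 7 comparisons (rows), from the edgeR model; filled points have an adjusted p below 0.05. The 2 filled points are Rhot1 in Mfn1&2-/- against Mfn2-/- (0.27) and in the interaction (0.44), and all intervals of Trak1 include 0.

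The ratio of the 2 Miro transcripts within a pool needs no scaling between libraries. Per kilobase, the Rhot1 level over the Rhot2 level was 4.82, 5.46 and 6.63 in WT, 3.90, 5.60 and 6.09 in Mfn1-/-, 4.62, 3.22 and 3.50 in Mfn2-/-, and 6.48, 6.61 and 5.70 in Mfn1&2-/-. Mfn2-/- was lowest, with all 3 pools under every WT and every Mfn1&2-/- pool, and Mfn1&2-/- was highest on average. The means were 5.63 ± 0.917 (SD, n = 3), 5.20 ± 1.15, 3.78 ± 0.743 and 6.26 ± 0.492 in the same order. Across the 4 groups the exact permutation test over 369600 assignments gave p = 0.0410, or 0.0821 after Benjamini-Hochberg adjustment over the 2 ratios, so the difference did not hold after adjustment.

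The Trak1 level over the Trak2 level per kilobase was 2.29, 3.85 and 2.80 in WT, 3.68, 3.69 and 3.60 in Mfn1-/-, 3.29, 2.17 and 3.11 in Mfn2-/-, and 4.41, 2.90 and 1.95 in Mfn1&2-/-. Only the Mfn1-/- pools lay close together. They lay inside the range of WT and of Mfn1&2-/- and above every Mfn2-/- pool. The exact permutation test gave p = 0.622 (0.622 adjusted).

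**Figure D4:**
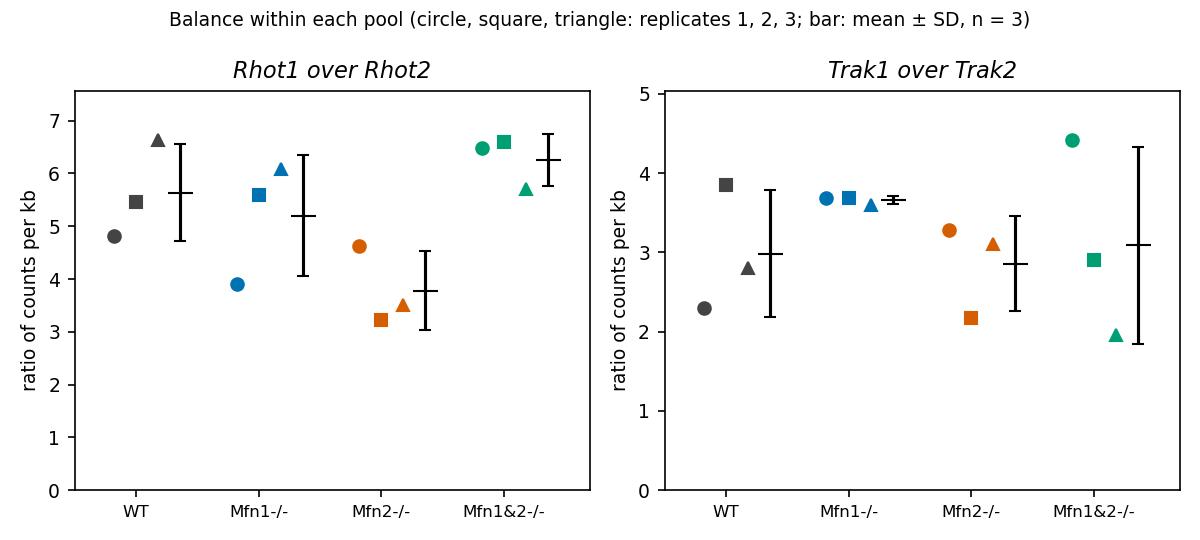
Ratio of Rhot1 to Rhot2 and of Trak1 to Trak2 counts per kb of merged exons (y axes from 0) in each pool, by genotype (x axes); markers are replicates 1, 2 and 3 and bars the mean ± SD of 3 pools. The Rhot1 to Rhot2 ratio is lowest in Mfn2-/- (3.22 to 4.62). The Trak1 to Trak2 ratios of the groups overlap, except that the Mfn1-/- pools lie above the Mfn2-/- pools.

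The motors and partners on which Miro and Trak act were read from lists of 56 tested genes, mitofusins left out. In Mfn1-/- against WT none was called by edgeR (8 at an unadjusted p under 0.05, 2 by DESeq2). Over all genes, 1456 of 11385 had an edgeR unadjusted p under 0.05 there, and DESeq2 called 224 of 11376. In Mfn2-/- against WT 2 were called, or 3.57%, and in Mfn1&2-/- against WT another 2, or 3.57%. These edgeR shares are to be read against 0.228%, 11.4% and 4.21% of all genes called by edgeR.

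Kinesin motors carry mitochondria outward through kinesin-1, whose heavy chains include Kif5b and Kif5c and whose light chains are the Klc genes. The kinesin list held 8 genes, among them 2510003E04Rik, which encodes a kinesin-binding protein and not a motor chain. Of the 8, edgeR and limma-voom called 0 in each comparison with WT. In Mfn1-/-, Mfn2-/- and Mfn1&2-/-, 2, 1 and 1 had an edgeR unadjusted p under 0.05, and DESeq2 called 0, 1 and 0. The median log2 fold changes of the 8 were 0.16, -0.08 and 0.11, against -0.01, 0.01 and 0.00 over all genes. The smallest p in each belonged to a light chain: Klc2 at 0.41 ± 0.14 in Mfn1-/- (edgeR adjusted p = 0.245), and Klc1 at -0.55 ± 0.19 in Mfn2-/- (0.0804) and 0.45 ± 0.19 in Mfn1&2-/- (0.215). Klc1 measured 35.7, 49.1 and 37.3 CPM in WT, 37.7, 57.1 and 43.0 in Mfn1-/-, 31.2, 23.0 and 29.4 in Mfn2-/-, and 66.3, 48.1 and 52.2 in Mfn1&2-/-. All Mfn2-/- pools lay below every WT pool, and the Mfn1&2-/- pools overlapped WT. Between the last 2 groups Klc1 rose by 0.99 ± 0.19 in Mfn1&2-/- (edgeR adjusted p = 0.00460). Klc1 was named for this comparison after its values were seen.

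Dynein and its activator dynactin move cargo toward the microtubule minus end. Of their 23 genes, edgeR called 0 in Mfn1-/- (2 unadjusted, 0 by DESeq2 and by limma-voom), 2 in Mfn2-/- and 0 in Mfn1&2-/- (3 unadjusted, 0 by both other tools), with median log2 fold changes of 0.04, 0.04 and 0.07. Dynll1, a dynein light chain that also binds many other proteins, was at 64.7, 60.6 and 37.2 CPM in WT, 70.8, 53.0 and 43.7 in Mfn1-/-, 124, 137 and 106 in Mfn2-/-, and 63.6, 51.1 and 68.0 in Mfn1&2-/-. It rose in Mfn2-/- by 1.17 ± 0.20 against WT (edgeR adjusted p = 0.00222), with every Mfn2-/- pool above every other pool, and was lower by -1.01 ± 0.20 in Mfn1&2-/- than in Mfn2-/- (0.00589). Dynlrb1, a roadblock-type dynein light chain, was at 30.0, 26.1 and 35.6 CPM in WT, 21.7, 26.6 and 27.8 in Mfn1-/-, 10.7, 19.6 and 15.1 in Mfn2-/-, and 26.0, 36.4 and 34.5 in Mfn1&2-/-. It fell in Mfn2-/- by 1.02 ± 0.22 on the log2 scale (edgeR adjusted p = 0.00833), with every Mfn2-/- pool under every other, and rose in Mfn1&2-/- relative to Mfn2-/- by 1.10 ± 0.22 (0.00561). These Dynll1 and Dynlrb1 calls were kept without each library in turn. The members with the smallest p elsewhere were Dynlt3 in Mfn1-/- (0.45 ± 0.17, edgeR adjusted p = 0.274) and Dynll2 in Mfn1&2-/- (-0.38 ± 0.14, 0.138).

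Other anchors and partners of Miro or Trak include syntaphilin (Snph), which docks mitochondria on microtubules, syntabulin (Sybu), a kinesin adaptor, and Ogt, which adds O-GlcNAc to proteins, Trak among them. Of 13 measured, edgeR called 0 in Mfn1-/- (2 unadjusted, 2 by DESeq2, 0 by limma-voom), 0 in Mfn2-/- (3 unadjusted, 0 by both other tools) and 1 in Mfn1&2-/-, with medians of -0.09, -0.01 and 0.09. Snph was at 49.6, 40.4 and 32.2 CPM in WT, 72.4, 46.6 and 42.3 in Mfn1-/-, 45.8, 58.5 and 66.3 in Mfn2-/-, and 68.5, 79.7 and 88.3 in Mfn1&2-/-. It rose in Mfn1&2-/- against WT by 0.95 ± 0.21 (edgeR adjusted p = 0.0163), with no overlap between those 2 groups. The call was lost without WT replicate 2 or 3 or Mfn1&2-/- replicate 2 or 3 (highest adjusted p 0.0718). Ogt in Mfn1-/- was 0.58 ± 0.16 (edgeR adjusted p = 0.124), and Sybu in Mfn2-/- was 0.64 ± 0.23 (0.0882).

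The genes that act on Miro turnover, among them the kinase Pink1, the ubiquitin ligase parkin (listed as Park2) and the F-box protein Fbxo7, gave 0 calls of 5 by edgeR in each comparison with WT (1, 0 and 1 unadjusted; 0 by DESeq2 and by limma-voom). Fbxo7 was at -0.47 ± 0.19 in Mfn1-/- (edgeR adjusted p = 0.316) and 0.48 ± 0.19 in Mfn1&2-/- (0.171), and Park2 at 0.70 ± 0.34 in Mfn2-/- (0.203). Fbxo7 measured 22.6, 18.4 and 17.7 CPM in Mfn1-/- and 30.2, 38.5 and 44.4 in Mfn1&2-/-, with no overlap. Between them it rose by 0.95 ± 0.19 (edgeR adjusted p = 0.00829), a comparison chosen after its values were seen. Medians of the list against WT were 0.06, 0.14 and 0.25 in the same order of genotypes.

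Among 7 genes of fusion and fission other than the mitofusins, edgeR called 0 in Mfn1-/- (1 unadjusted, 0 by both other tools), 0 in Mfn2-/- (2 unadjusted, 1 by DESeq2, 0 by limma-voom) and 1 in Mfn1&2-/-. Mff, an outer-membrane receptor for the fission GTPase Drp1, was at 140.1, 175 and 142 CPM in WT, 109.9, 128 and 140.1 in Mfn1-/-, 134, 155 and 136 in Mfn2-/-, and 110.4, 103 and 102 in Mfn1&2-/-. It fell in Mfn1&2-/- by 0.53 ± 0.12 on the log2 scale against WT (edgeR adjusted p = 0.0147), with no overlap, and by 0.43 ± 0.12 against Mfn2-/- (0.0274). The first of these was lost without WT replicate 2 or Mfn1&2-/- replicate 2 or 3 (highest adjusted p 0.0711), and the second without replicate 2 or 3 of either Mfn2-/- or Mfn1&2-/- (0.116). The sum of the endothelial markers was highest in Mfn1&2-/-, the group with the lowest mean of Mff and the highest mean of Snph. The part of that sum in either was not tested. In Mfn1-/- Mff was at -0.27 ± 0.11 (edgeR adjusted p = 0.332), and in Mfn2-/- the smallest p was that of Oma1, a protease that cuts Opa1, at 0.43 ± 0.14 (0.0533).

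**Figure D5:**
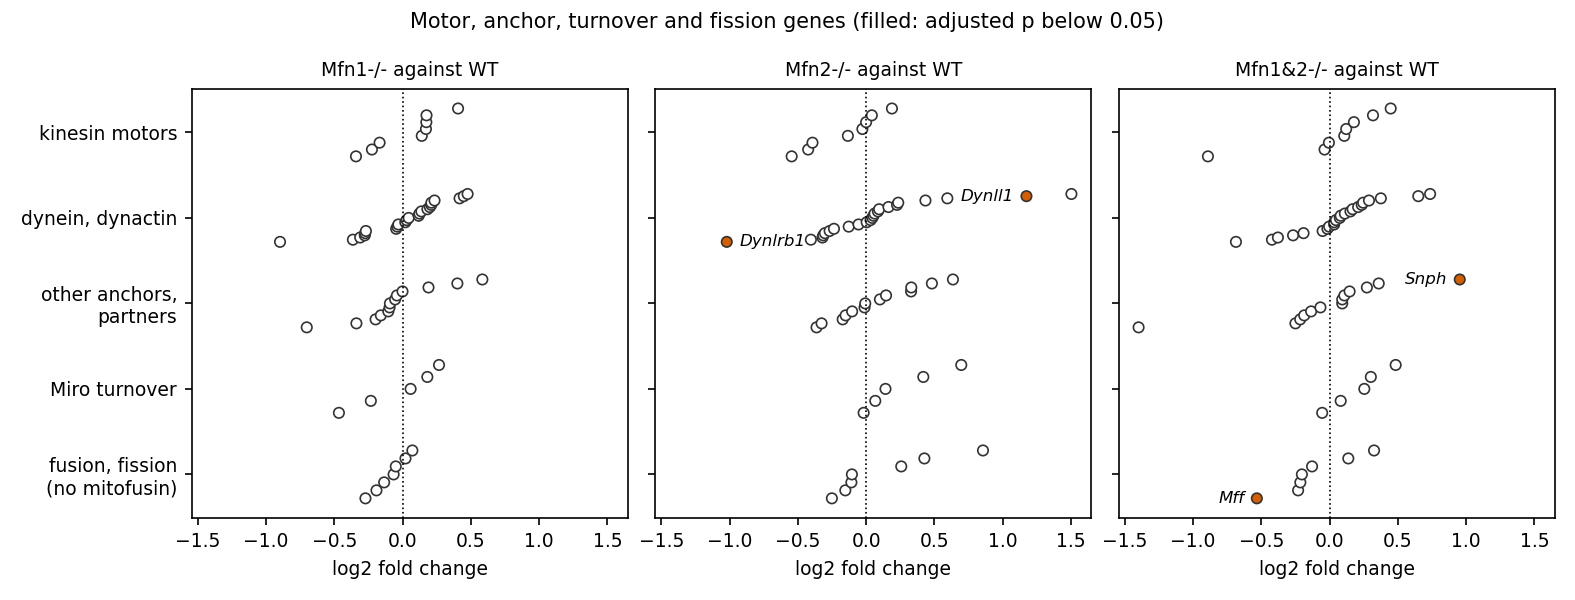
Log2 fold change against WT (x axes) of each gene of the motor, anchor, turnover and fission lists (rows), 1 panel per genotype; filled points have an edgeR adjusted p below 0.05. Filled are Dynll1 and Dynlrb1 in Mfn2-/- and Snph and Mff in Mfn1&2-/-, and no point is filled in Mfn1-/-.

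Across the other contrasts the same 56 genes gave 1 call in Mfn1&2-/- against Mfn1-/- (1.79%, background 5.36%; Fbxo7), 4 in Mfn1&2-/- against Mfn2-/- (7.14%, background 10.2%; Klc1 and Dynlrb1 higher, Dynll1 and Mff lower), 8 in Mfn1-/- against Mfn2-/- (14.3%, background 13.3%) and 1 in the interaction (1.79%, background 4.13%). The 8 were Klc1, Klc2 and Dynlrb1, higher in Mfn1-/-, and Kif1b, Dynll1, Dynlt1b, Vps13d and Fbxo7, lower. Dynll1 kept this call without each library in turn. The others lost it without Mfn1-/- replicate 1 or Mfn2-/- replicate 1 (Klc2, highest edgeR adjusted p 0.0908), without replicate 2 of either (Klc1, 0.120), without replicate 1 or 3 of either (Vps13d, 0.124), or without Mfn1-/- replicate 2 or 3 or Mfn2-/- replicate 1 or 3 (Dynlrb1, 0.140). Kif1b lost it without Mfn1-/- replicate 2 or 3 or any Mfn2-/- pool (edgeR adjusted p up to 0.0936), and Dynlt1b without any pool of either group (0.115) and with the replicate block (0.0561). Fbxo7 lost it without WT replicate 1, Mfn1-/- replicate 2 or 3, Mfn2-/- replicate 1 or 2 or Mfn1&2-/- replicate 2 (edgeR adjusted p up to 0.184), as well as with library size only, limma-voom, the replicate block and only the groups compared. Of these, Kif1b and Vps13d lie on chromosome 4 at 1.27 and 2.68 Mb from Mfn2, and Dynlt1b has near-identical copies, so its counts are uncertain. The interaction call was Dynlrb1, at 1.37 ± 0.31 (edgeR adjusted p = 0.0249). It was lost without WT replicate 3, Mfn1-/- replicate 1, Mfn2-/- replicate 3 or Mfn1&2-/- replicate 2, with a highest adjusted p of 0.0657.

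Over the 12 libraries the Miro and Trak genes did not run together. As a description over libraries that share 4 genotypes, Pearson's r of log2(CPM + 1) was -0.46 for Rhot1 with Rhot2, -0.31 for Trak1 with Trak2, 0.49 for Rhot2 with Trak2, 0.14 for Rhot2 with Trak1, 0.11 for Rhot1 with Trak2 and -0.05 for Rhot1 with Trak1. Among 8756 genes with a mean of at least 5 CPM, the profiles most like Rhot1 were those of Ppap2a (0.938), Hyls1 (0.917) and Tubb4b (0.904). Those most like Rhot2 were Noto (0.915), Ssr2 (0.914) and Rapgefl1 (0.909). For Trak1 they were Ambra1 (0.939), Sprtn (0.905) and Pcnt (0.887), and for Trak2 they were H6pd (0.900), Tmem19 (0.839) and Bsg (0.828). The highest likeness to Trak2 was thus lower than the highest for each of the other 3 genes.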

How the data were processed

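Per the labels' protocols, RNA came from a PicoPure extraction, and ribosomal RNA was depleted before stranded SMARTer libraries were read as 100 bp pairs. Tools named in the submitters' processing notes are FastQC 0.11.7, STAR 2.7.0a and edgeR (no version), with mm10. The sources used here do not give the annotation, the strand setting or the rule for reads matching more than 1 gene. The authors deposited raw counts per gene and, as a second table, a signal in CPM. Recomputing TMM-scaled CPM from the counts gave the deposited signal within a relative 5.07e-15, so only the counts entered the tests.

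Groups came from the labels. The model was edgeR 4.0.16 (quasi-likelihood F test after TMM scaling, 1 mean per group, all 12 libraries, 8 residual degrees of freedom). No gene was lost to filterByExpr, leaving 11385. Benjamini-Hochberg adjustment ran over all genes of each of 7 comparisons, with calls below 0.05. Each ratio was tested by an exact permutation of group labels on log2 counts, with the F statistic. Lengths are merged exons of GENCODE vM21 (GRCm38). Alternatives used DESeq2 1.42.0, limma 3.58.1 (voom), other scalings, filters, designs and left-out libraries. From each gene list, up to 4 called genes per comparison with WT were named, or else the gene with the smallest p. The Miro and Trak genes and the lists were chosen with earlier results of these data known.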

Additional observations from a re-analysis of the deposited data

Results flagged for a closer look

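For 2 genes the effect of losing 1 mitofusin differed, by the interaction test of the edgeR model, according to whether the other was also lost. They were 1 of the 4 Miro and Trak genes and 1 of the 56 list genes (1.79%). Over all genes the same test called 4.13%, so the calls do not set these genes apart. Rhot1 had an interaction of 0.44 ± 0.12 on the log2 scale (adjusted p = 0.0467), from group means of 415.5, 370.0, 373 and 449.7 CPM in WT, Mfn1-/-, Mfn2-/- and Mfn1&2-/-. Dynlrb1 had an interaction of 1.37 ± 0.31 (edgeR adjusted p = 0.0249). The Rhot1 call was lost with median-of-ratios scaling (edgeR adjusted p = 0.0546), library size only (0.0903) and the replicate block (0.0792). It was also lost without any 1 of 11 libraries, and the Dynlrb1 call without any 1 of 4. Groups of 3 pools were too small to test for single outlying samples.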

How the results depend on the processing

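Fold changes of the 4 genes kept direction and side of the threshold in 207 of 220 values across other settings. One of these settings, no filter on low counts, repeats the main fit because the filter removed no gene, so its values agree by construction. The 2 transcript ratios stayed short of the threshold after adjustment in every setting tried (exact permutation), and their direction was not compared. Rhot1 in Mfn1&2-/- against Mfn2-/- fell short of the call with median-of-ratios scaling (0.27, edgeR adjusted p = 0.0557), library size only (0.22, 0.0720) and only the groups compared (0.26, 0.0840). This left 0 of the 4 genes called in each, where 1148 of 11385, 1200 of 11385 and 1082 of 11342 genes were called. The Rhot1 interaction fell short with median-of-ratios scaling (0.44, edgeR adjusted p = 0.0546) and library size only (0.33, 0.0903). Again 0 of the 4 were called, against 437 and 447 of 11385 genes. Library size only moved the all-gene interaction median to -0.12 and the share of higher calls from 70.9% to 46.3%. It also moved that share from 60.1% to 48.3% for Mfn1&2-/- against Mfn2-/-, from 39.7% to 49.8% for Mfn2-/- against WT and from 51.5% to 38.5% for Mfn1&2-/- against Mfn1-/-. In Mfn1&2-/- against Mfn1-/- Rhot1 was called by limma-voom (0.28, adjusted p = 0.0489) and DESeq2 (0.28, 0.0302). It was 1 of the 4 genes in each, where 658 of 11385 and 1044 of 11376 genes were called. Trak2 in Mfn1-/- against Mfn2-/- was called with only the groups compared (-0.49, edgeR adjusted p = 0.0332). It was 1 of the 4 genes, where 1604 of 11351 genes were called. Signs turned for Rhot2 in Mfn1-/- against WT (0.0348, library size only) and for Rhot1 in Mfn1-/- against Mfn2-/- (0.00120, library size only; 0.00379, only the groups compared). Apart from fewer samples in the last setting, the cause was not tested.

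With the replicate number as a block, Rhot1 gave 0.27 in Mfn1&2-/- against Mfn2-/- (edgeR adjusted p = 0.0769) and 0.44 in the interaction (0.0792). Both had 0 of the 4 genes called, where 965 and 276 of 11385 genes were called. The adjusted p of the ratios was 0.194 and 0.682 (exact permutation within blocks). Replicate numbers did not pair the pools: deviations of same-numbered pools correlated at -0.167 to 0.196, 4 of 18 pairs exceeded 0.1, and 5 of 12 libraries correlated best with their own number. The pool descriptions carry another number, which some pools of different genotypes share. Pairing by that number was not tested. The block also moved the count of all genes in the interaction from 470 to 276.

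Over all genes DESeq2 called 224, 834, 1044 and 903 where edgeR called 26 (Mfn1-/- against WT), 479 (Mfn1&2-/- against WT), 610 (Mfn1&2-/- against Mfn1-/-) and 470 (interaction), and only the groups compared gave 13 in the first.

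Leaving out each library in turn, the Rhot1 log2 fold change ran from -0.20 to -0.14 (Mfn1-/- against WT), -0.21 to -0.10 (Mfn2-/- against WT), 0.10 to 0.14 (Mfn1&2-/- against WT), 0.25 to 0.32 (Mfn1&2-/- against Mfn1-/-), 0.21 to 0.33 (Mfn1&2-/- against Mfn2-/-), -0.0712 to 0.0465 (Mfn1-/- against Mfn2-/-) and 0.38 to 0.50 (interaction). In the same order Rhot2 ran from -0.22 to 0.0766, 0.31 to 0.52, -0.16 to 0.0481, -0.12 to 0.16, -0.56 to -0.41, -0.63 to -0.35 and -0.55 to -0.25. Trak1 ran from -0.13 to -0.02, -0.0148 to 0.10, -0.17 to -0.02, -0.0778 to 0.0413, -0.19 to -0.07, -0.17 to -0.07 and -0.10 to 0.0163. Trak2 ran from -0.55 to -0.28, -0.0656 to 0.22, -0.34 to 0.14, 0.09 to 0.56, -0.42 to 0.0618, -0.58 to -0.36 and 0.01 to 0.49. The deleted Mfn2 ran from -0.179 to 0.115 in Mfn1&2-/- against Mfn2-/-. Counts of Miro and Trak genes called ran from 0 to 1 in the interaction, in Mfn1-/- against Mfn2-/- and in Mfn1&2-/- against Mfn2-/-, and all-gene interaction calls from 160 to 464. All-gene calls against WT ran from 3 to 51 (Mfn1-/-), 708 to 1429 (Mfn2-/-) and 282 to 550 (Mfn1&2-/-). They ran from 295 to 689 in Mfn1&2-/- against Mfn1-/-, 570 to 1302 in Mfn1&2-/- against Mfn2-/- and 873 to 1673 in Mfn1-/- against Mfn2-/-, so the shares of all genes set beside the counts move with single libraries. The adjusted p of the Rhot1 to Rhot2 ratio ran from 0.0588 to 0.238 (exact permutation).

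Per kilobase of the longest transcript the order of the 4 genes was the same, at higher levels: Rhot1 97.5, 86.9, 87.5 and 105.6, Rhot2 14.1, 13.8, 18.8 and 13.5, Trak1 67.1, 63.1, 68.3 and 62.9 CPM in WT, Mfn1-/-, Mfn2-/- and Mfn1&2-/-, and Trak2 8.43 in Mfn1-/-. With library size only, Rhot1 in WT was 55.1 per kilobase of merged exons. Counts per library were 4101 to 7017 for Rhot1, 4069 to 5799 for Trak1, 455 to 961 for Rhot2 and 563 to 1204 for Trak2. Relative counting error is therefore larger for the minor genes, and its part in their wider scatter was not tested.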
